A study of Mus musculus with 36 samples.

Results

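The comparison described here set chemically reprogrammed cells against isolated rods of postnatal day 5 over all genes, and its members were the 3 libraries titled as reprogrammed cells (CiPC, n = 3) and the 3 libraries titled as P5 rods (n = 3), chosen by their titles. They are 6 of the 33 libraries with values in the table, of 36 listed. CiPC are photoreceptor-like cells made from mouse embryonic fibroblasts (MEF) by treatment with 5 chemicals in photoreceptor induction medium, collected on day 11. P5 rods are rods isolated at postnatal day 5. All groups carried the Nrl-GFP genotype, a green fluorescent protein reporter driven by the promoter of Nrl. The labels give every sample the same protocol, a sort on a promoter reporter that they do not name and 80 ng of total RNA, so the level of Nrl may have been part of how cells were obtained. The labels name neither the chemicals nor the culture or animal behind a replicate, and p-values therefore reflect only how far these libraries spread, which may be technical. For context, MEF at passage 2 (n = 3), intermediates of day 5 and day 8 (n = 3 each), and rods of P2 and P4 (n = 2 each) and P6 (n = 3) are quoted where a result turns on them. The P2, P4 and P6 rods came from another series and were placed in the same table by the authors, so age and series cannot be told apart between them and the P5 rods.

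Rods are the sensory neurons of dim-light vision. Light activates the photopigment of the outer segment, a stack of membrane discs built on a modified cilium, and the signal passes through transducin and a phosphodiesterase to cyclic GMP-gated channels and on to a ribbon synapse with bipolar cells. Rod identity is set by the transcription factors Otx2, Crx, Nrl and Nr2e3 acting in sequence, with Crx and Otx2 recognising a short TAATCC core in the promoters of many photoreceptor genes. Müller glia, the retina's radial glia, share many genes with the dividing retinal progenitors from which rods arise, and rods leave the cell cycle for good when they are born.

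Promoter windows of 5 genes on which the results turn are given first, as the 250 bases before and the 50 bases after the annotated start, 5′ to 3′ on the gene's own strand (RefSeq, GRCm38.p6). They show Crx and Rbp3 as photoreceptor genes that were lower in CiPC, Nrl as the gene whose promoter drives the reporter, and Cyr61 and Acta2 as genes that were higher in CiPC. Capitals mark 3 motifs searched on both strands. These are the CRX/OTX core (TAATCC or GGATTA), the TEAD core (GGAATG or CATTCC) and an NRL-type element (TGCTGA or TCAGCA).
Crx, chr7:15879906-15880205, minus strand: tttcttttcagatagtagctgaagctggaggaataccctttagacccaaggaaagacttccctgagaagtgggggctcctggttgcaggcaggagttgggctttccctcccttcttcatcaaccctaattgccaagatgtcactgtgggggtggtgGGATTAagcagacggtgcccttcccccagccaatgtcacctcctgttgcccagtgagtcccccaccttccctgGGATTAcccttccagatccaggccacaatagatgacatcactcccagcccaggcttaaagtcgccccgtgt
Rbp3, chr14:33953753-33954052, plus strand: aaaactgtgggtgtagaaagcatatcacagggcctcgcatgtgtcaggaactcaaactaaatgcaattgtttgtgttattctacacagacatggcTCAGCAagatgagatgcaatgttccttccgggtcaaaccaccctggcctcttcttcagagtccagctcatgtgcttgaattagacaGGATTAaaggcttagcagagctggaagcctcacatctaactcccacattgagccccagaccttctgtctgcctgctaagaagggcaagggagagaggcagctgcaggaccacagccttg
Nrl, chr14:55524203-55524502, minus strand: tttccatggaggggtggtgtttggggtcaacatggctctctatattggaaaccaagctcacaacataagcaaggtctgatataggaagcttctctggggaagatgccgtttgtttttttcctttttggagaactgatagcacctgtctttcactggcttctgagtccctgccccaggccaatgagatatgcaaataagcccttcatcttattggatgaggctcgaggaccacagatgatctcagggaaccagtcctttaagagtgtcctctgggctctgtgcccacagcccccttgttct
Cyr61, chr3:145649936-145650235, minus strand: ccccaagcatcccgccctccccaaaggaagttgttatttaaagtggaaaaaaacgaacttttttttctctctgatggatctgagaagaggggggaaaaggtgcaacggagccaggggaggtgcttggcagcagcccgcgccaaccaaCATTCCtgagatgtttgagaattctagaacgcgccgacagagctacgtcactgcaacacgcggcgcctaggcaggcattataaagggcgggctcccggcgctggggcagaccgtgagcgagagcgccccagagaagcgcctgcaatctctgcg
Acta2, chr19:34255324-34255623, minus strand: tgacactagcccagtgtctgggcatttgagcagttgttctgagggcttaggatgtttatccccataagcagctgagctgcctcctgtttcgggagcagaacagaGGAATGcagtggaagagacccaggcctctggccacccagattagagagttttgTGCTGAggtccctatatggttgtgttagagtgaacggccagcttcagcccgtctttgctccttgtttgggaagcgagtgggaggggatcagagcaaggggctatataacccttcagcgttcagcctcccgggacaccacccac
The Crx window held 2 CRX/OTX cores and the Rbp3 window held 1, together with 1 NRL-type element. The Cyr61 window held 1 TEAD core, and the Acta2 window held 1 TEAD core and 1 NRL-type element. None of the 3 motifs was in the Nrl window. Over the first window of each of 27025 genes, 7.16% held the CRX/OTX core, 14.6% the TEAD core and 19.1% the NRL-type element, so a match is a description of these letters and not a site.

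Values are the authors' normalized CPM, and changes are CiPC minus P5 rods in log2(CPM + 1) units ± SE, which shrinks the change of genes near 0 CPM. A gene was called, and is written as higher, lower, risen or fallen, where limma's Benjamini-Hochberg adjusted p over all tested genes was under 0.05 and the fold was at least 2. CiPC libraries summed to 819893 to 824208 CPM and P5 libraries to 749719 to 751595 CPM over all genes, and 1 CPM or more was reached by 12983 to 12996 genes in CiPC and 12702 to 12747 in P5 rods. Mitochondrially encoded genes took 4.79% to 5.34% of CiPC libraries and 1.96% to 2.57% of P5 libraries, against 3.07% to 3.72% of MEF libraries. The depth behind the values is unknown. Genes were tested where at least 3 of the 6 libraries reached 1 CPM. Of the tested genes, 1114 passed through CiPC alone, with at least 1 P5 library under 1 CPM, and 768 through P5 rods alone. The filter itself favours a call towards the group that carried such a gene, so where they are many in a list their number is given and the list's count and median support nothing by themselves. Replicates lay close together, with a median SD over tested genes of 0.112 log2 units in CiPC and 0.0905 in P5 rods.

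Of 13546 genes tested, 3365 were higher in CiPC (24.8%) and 2500 were lower (18.5%), so 43.3% of all genes were called and a list of unrelated genes would have many called members. At an adjusted p under 0.05 without a fold threshold stood 11609 genes, and in 86.4% of genes the 3 libraries of 1 group did not overlap those of the other. The 2 directions were unequal in size. By 16-fold or more, 375 genes were higher in CiPC and 40 were lower, and by 64-fold or more the numbers were 37 and 0. The median change of all tested genes was -0.03. Under quantile normalization the median moved by -0.18 and 45.9% of calls were higher in CiPC, against 57.4% on the deposited scale, so the balance of the directions depends on the scaling.

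**Figure D1:**
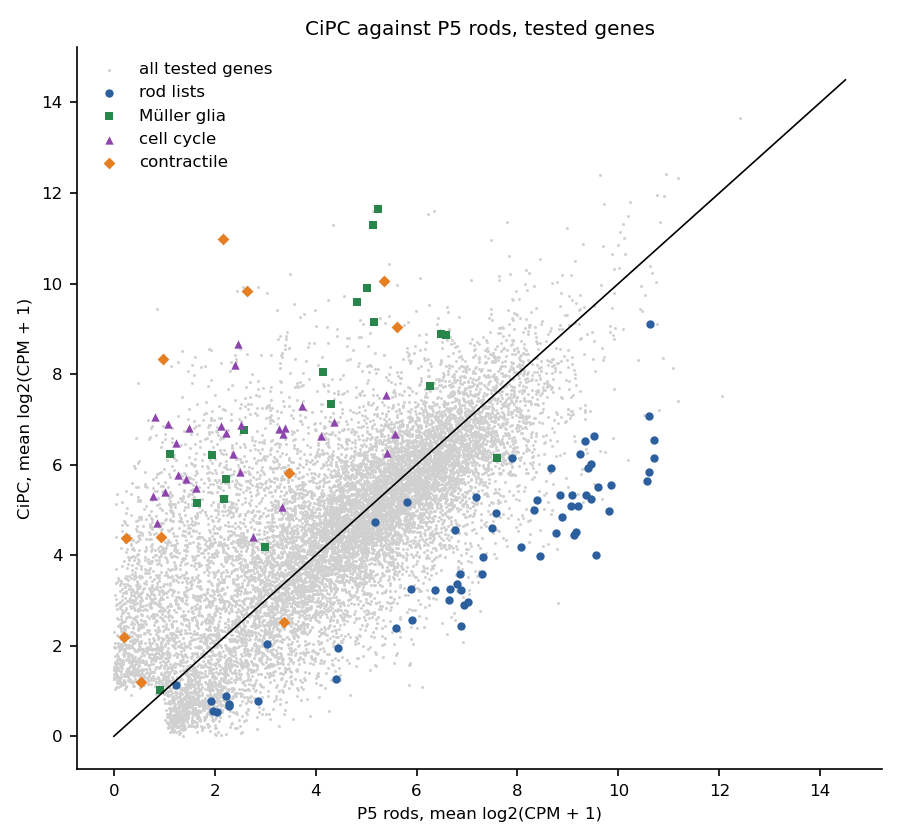
Mean log2(CPM + 1) of each tested gene in CiPC (vertical axis) and P5 rods (horizontal axis), 3 libraries per group, with genes of the rod, Müller glia, cell cycle and contractile lists coloured and the line of equal levels drawn. Genes of the rod lists lie below or close to the line and those of the Müller glia, cell cycle and contractile lists lie mostly above it, while 43.3% of all tested genes were called.

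The rod transcription factors were present in CiPC at a small share of their level in rods. Nrl (chromosome 14, 55518978 to 55524981, minus strand, GRCm38), which commits photoreceptor precursors to the rod fate, had 30.9, 30.4 and 30.7 CPM in CiPC, against 864, 886 and 939 CPM in P5 rods. All CiPC libraries lay far below all P5 libraries, and the CiPC mean was 3.42% of the P5 mean (change -4.82 ± 0.054, limma adjusted p = 9.18e-12). MEF stood at 0.237 ± 0.0582 CPM and day 8 cells at 0.155 ± 0.0935 CPM. Crx (chromosome 7, 15865947 to 15879968, minus strand), the homeobox activator of photoreceptor genes, had 97.8, 94.5 and 86.8 CPM in CiPC, against 1621, 1658 and 1712 CPM in P5 rods, with the CiPC mean at 5.59% of the P5 mean. Nr2e3 (chromosome 9, 59942771 to 59960659, minus strand), which represses cone genes in rods, had 21.4, 20.5 and 20.4 CPM in CiPC, against 522, 566 and 582 CPM in P5 rods. Its groups were apart in the same way, at 3.73% of the P5 mean. Otx2, upstream of all 3, had 74.1 ± 1.56 CPM in CiPC, against 605 ± 4.38 CPM in P5 rods, a change of -3.01 ± 0.049.

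In the list of photoreceptor transcription factors, 15 of 16 members fell, 0 rose and 1 was not called, with a median change of -2.96 beside -0.03 for all tested genes and 18.5% of them lower. Of the 16, 3 passed the filter through P5 rods alone, and 12 of the other 13 fell. The member not called was Mef2c, at 1.18 CPM in CiPC and 1.36 CPM in P5 rods. The retinoid-related receptor Rorb, which acts before Nrl, changed by -1.75 ± 0.077, less than Crx, and Neurod1, a factor of photoreceptor survival, by -3.74 ± 0.07. Samd11 and Casz1 had 39.6 ± 5.87 CPM in CiPC, against 653 ± 20.9 CPM in P5 rods, and 33.9 ± 8.81 CPM in CiPC, against 533 ± 27.8 CPM in P5 rods. Thrb, the thyroid hormone receptor of cone fate, had 8.58 CPM in CiPC and 58.3 CPM in P5 rods, and Rxrg, its partner in cones, 0.443 CPM in CiPC and 3.12 CPM in P5 rods.

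Genes of the phototransduction cascade were lower in CiPC almost throughout. Pde6b (chromosome 5, 108388391 to 108432397, plus strand), the catalytic beta subunit of the rod phosphodiesterase, had 15.2, 14.2 and 15.5 CPM in CiPC, against 765, 745 and 759 CPM in P5 rods. The groups lay far apart, with CiPC at 1.98% of the P5 mean (change -5.57 ± 0.057). Pdc, phosducin, which binds transducin's beta-gamma subunits, changed by -4.57 ± 0.086, and Unc119, which carries the lipid tail of transducin, by -3.45 ± 0.062. Gnat1, rod transducin alpha, had 2.39, 3.43 and 2.84 CPM in CiPC, against 20.3, 20.7 and 20.9 CPM in P5 rods. Both groups were low and did not overlap. Of the transducin and phosphodiesterase list, 10 of 12 members fell and the other two, Pde6a and Pde6d, were not called (median -3.02). Pde6a, the alpha subunit, was at 3.16 CPM in CiPC and 7.21 CPM in P5 rods, low in both, while its difference from P4 and P6 rods was -3.52 and was called. The smallest fall was that of Gnb1, a beta subunit that many cells use (547 CPM in CiPC and 1576 CPM in P5 rods), and MEF held 658 CPM of it.

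Among photopigment and shutoff genes, 6 of 6 members fell (median -3.42). Sag, the arrestin of rods, had 90.5, 88.8 and 91.8 CPM in CiPC, against 637, 644 and 668 CPM in P5 rods. The CiPC mean was 13.9% of the P5 mean, against 6.44% for Rcvrn, the calcium sensor recoverin, and 8.56% for Grk1, the kinase that recoverin restrains. Among channel, cyclase and calcium feedback genes, 11 of 11 members fell (median -3.4). Cngb1 and Cnga1, the subunits of the rod cyclic GMP-gated channel, changed by -4.11 ± 0.068 and -4.03 ± 0.073. Gucy2e and Rd3, a guanylate cyclase and its trafficking protein, had 7.07 CPM in CiPC and 98.7 CPM in P5 rods, and 6.91 CPM in CiPC and 128 CPM in P5 rods.

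The outer segment list held 16 of 17 members that fell and 1 not called, with a median change of -3.72, the lowest of the lists tested. Rp1 (chromosome 1, 3999557 to 4409241, minus strand), a microtubule protein of the outer segment axoneme, had 44.9, 49.3 and 53.3 CPM in CiPC, against 1627, 1549 and 1405 CPM in P5 rods. Prph2 (chromosome 17, 46910459 to 46924933, plus strand), the tetraspanin of the disc rim, had 61.6, 58.4 and 48.3 CPM in CiPC, against 1459.9, 1558 and 1636 CPM in P5 rods. In each gene all CiPC libraries lay far below the lowest rod library, with CiPC means at 3.22% and 3.62% of the P5 means. Tulp1, a transport protein of photoreceptors, and Rp1l1, a relative of Rp1, changed by -4.66 ± 0.16 and -4.48 ± 0.075. Cdhr1, a cadherin at the base of the outer segment, had 134 ± 6.49 CPM in CiPC, against 1558 ± 10.7 CPM in P5 rods. The member not called, Ttc21b, belongs to the transport machinery of cilia in general (25.6 CPM in CiPC and 35 CPM in P5 rods).

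Ribbon synapse genes followed. Of 22 members, 20 fell and the other two, Ctbp2 and Dmd, were not called (median -3.06). Elfn1, an adhesion protein that links the rod terminal to bipolar cell receptors, had 1.59, 1.14 and 0.728 CPM in CiPC, against 60.5, 69.7 and 73.9 CPM in P5 rods. CiPC stood close to 1 CPM, below MEF at 10.3 ± 2.63 CPM. Slc17a7, the vesicular glutamate transporter VGLUT1, had 41.5, 36.2 and 32.7 CPM in CiPC, against 783, 809 and 863 CPM in P5 rods. P4 and P6 rods held 119 and 203 CPM, and the change was -4.44 ± 0.085 against P5 rods and -2.05 against P4 and P6 rods. Dmd, dystrophin, had 111, 128 and 111 CPM in CiPC, against 122, 132 and 116 CPM in P5 rods, while its difference from P4 and P6 rods was -2.34 and was called. Syt1, a vesicle calcium sensor, kept 34.1% of the P5 level, and Lrit1 and Sv2b kept 4.83% and 6.58%.

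Cone genes were mostly lower in CiPC as well. Gnb3, the beta subunit of cone transducin, was the most abundant of them in both groups (204 ± 11.1 CPM in CiPC, against 965 ± 45.4 CPM in P5 rods), and its difference from P4 and P6 rods, -0.67, was not called. Of 10 members tested, 8 fell and the other two, Gnat2 and Opn1sw, were not called (median -2.01). Of the 10, 3 passed the filter through P5 rods alone, and of the other 7, 5 fell. Gnat2, cone transducin alpha, was at 8.27 ± 0.686 CPM in CiPC, against 9.61 ± 0.723 CPM in P5 rods. Both Gnat2 and Opn1sw were called lower against P4 and P6 rods, with differences of -1.92 and -5.15. Pde6h, the cone phosphodiesterase gamma subunit, was at 0.698 CPM in CiPC and 9.65 CPM in P5 rods.

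**Figure D2:**
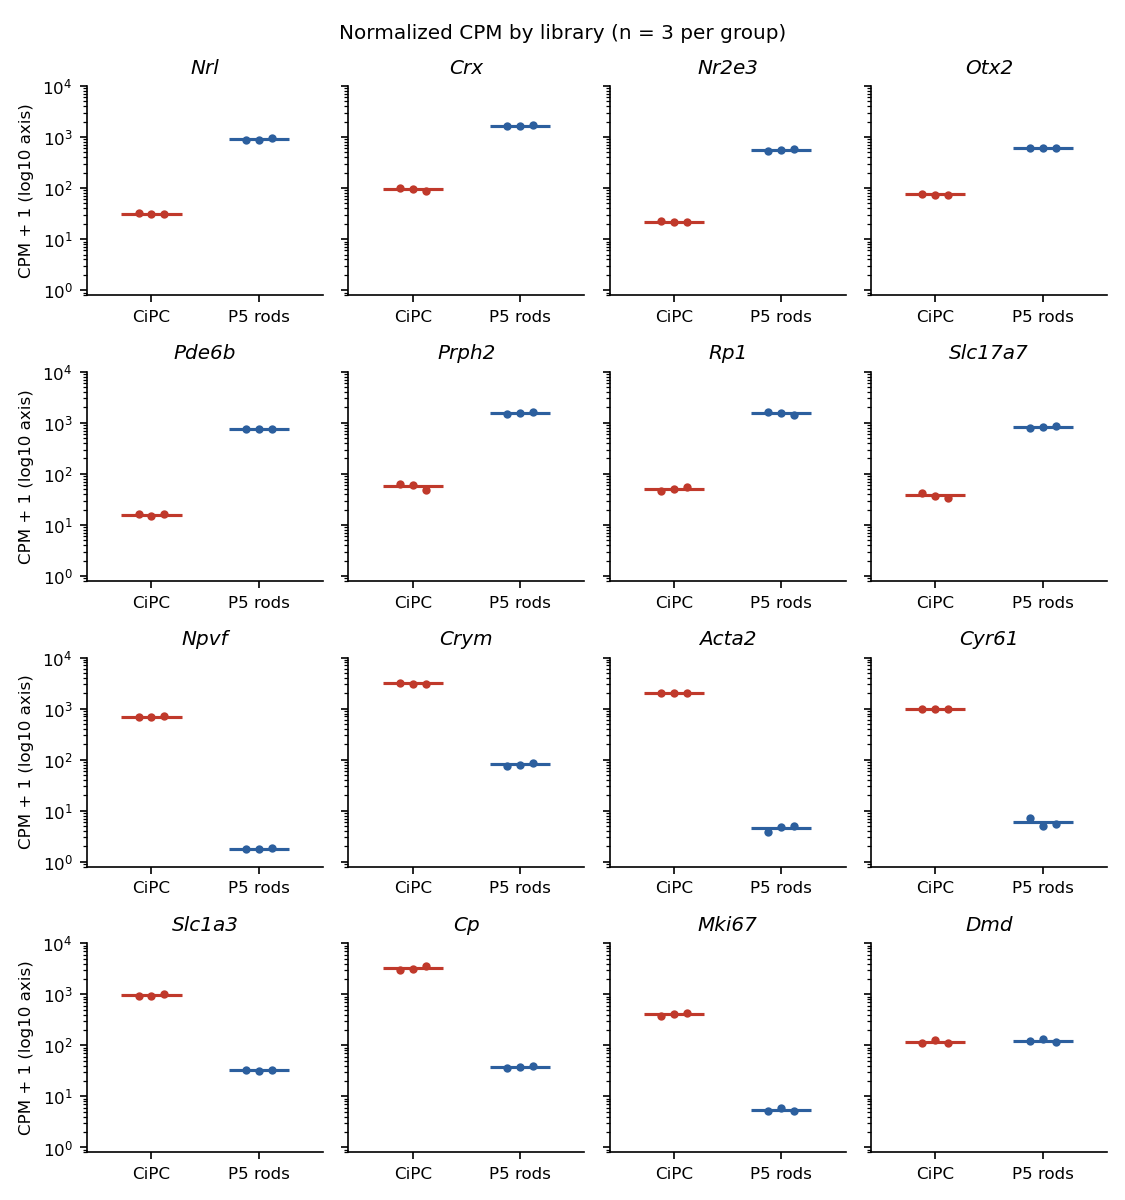
Normalized CPM of 16 genes in each library of CiPC (left in each panel) and P5 rods (right), on a log10 axis of CPM + 1, with the mean as a bar. The 3 points of a group lie close together in each panel, with Nrl, Crx, Pde6b, Prph2, Rp1 and Slc17a7 higher in P5 rods, and Npvf, Crym, Acta2, Cyr61, Slc1a3, Cp and Mki67 higher in CiPC.

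Genes of retinoid handling went both ways against P5 rods. Of 12 members tested, 5 fell, 3 rose and 4 were not called, beside 18.5% of all genes lower and 24.8% higher. Of the 12, 2 passed the filter through P5 rods alone, and of the other 10, 4 fell and 3 rose. With P4 and P6 rods instead, 6 of 12 fell and 1 rose. Rbp3, the retinoid carrier that photoreceptors secrete into the matrix around them, had 203, 185 and 164 CPM in CiPC, against 4082, 4215 and 4405 CPM in P5 rods, and its change was -4.52 ± 0.078. Abca4, which flips retinaldehyde across the disc membrane, and Rdh12, a photoreceptor retinol dehydrogenase, changed by -3.33 ± 0.081 and -3.15 ± 0.068. Among those that rose, Rlbp1, the retinaldehyde carrier of Müller glia and pigment epithelium, had 258, 258 and 273 CPM in CiPC, against 16.8, 15.9 and 17.7 CPM in P5 rods, and MEF held 0.247 ± 0.214 CPM. Its difference from P4 and P6 rods, 0.79, was not called. Rdh10, which makes retinaldehyde for retinoic acid, rose by 2.16 ± 0.074, although its difference from P4 and P6 rods was -0.12. Very-long-chain fatty acid elongases that supply photoreceptor membranes were lower, with Elovl2 at 10.8 ± 0.481 CPM in CiPC, against 109 ± 1.91 CPM in P5 rods and Elovl4 at 46.3 ± 3.79 CPM in CiPC, against 419 ± 25.9 CPM in P5 rods.

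Genes of the photoreceptor cilium were lower by less. Of primary cilium transport genes, 14 of 25 fell, 1 rose and 10 were not called (median -1.12), and of transition zone genes 12 of 21 fell and 1 rose (median -1.41). The fallen transport members included the BBSome subunits Bbs9 (-2.57 ± 0.063), Bbs7 (-2.56 ± 0.072), Bbs5 (-2.47 ± 0.1) and Bbs1 (-2.46 ± 0.071). Of the intraflagellar transport subunits, Ift88 and Ift122 fell (-1.5 ± 0.13 and -1.47 ± 0.067), and Ift52 and Ift74 stood at 32.2 CPM in CiPC and 30.5 CPM in P5 rods, and 24.7 CPM in CiPC and 27.5 CPM in P5 rods, and were not called, although Ift74 was called lower against P4 and P6 rods (-1.64). Cep290, a large protein of the transition zone, had 30.4, 29.4 and 36 CPM in CiPC, against 235, 231 and 213 CPM in P5 rods, and the groups did not overlap. Kif3a, a kinesin-2 motor subunit, and Tulp3, an adaptor for ciliary membrane proteins, were the members that rose, by 1.07 ± 0.087 and 2.84 ± 0.06.

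Genes of Müller glia were higher in CiPC than in P5 rods. Of 19 members tested, 17 rose, 1 fell and 1 was not called (median 3.51, beside 24.8% of all genes higher). Slc1a3 (chromosome 15, 8634124 to 8710764, minus strand), the glutamate transporter of Müller glia, had 918, 939 and 1007 CPM in CiPC, against 32.2, 29.8 and 32.4 CPM in P5 rods. Kcnj10, their main potassium channel, had 107, 107 and 112 CPM in CiPC, against 5.19, 5.07 and 4.77 CPM in P5 rods, and Glul, glutamine synthetase, 464 ± 3.55 CPM in CiPC, against 94.4 ± 5.82 CPM in P5 rods. MEF held 5.16 CPM of Slc1a3 and 0.378 CPM of Kcnj10. Cp, the ferroxidase ceruloplasmin, rose by 6.4 ± 0.078, and Vim, the intermediate filament vimentin that fibroblasts also hold, by 6.15 ± 0.064 (MEF 2685 CPM). Gfap, a filament of reactive glia, had 50.3 CPM in CiPC and 3.72 CPM in P5 rods. Slc38a3, a glutamine transporter, fell against the list (-1.45 ± 0.073). Against P4 and P6 rods, 13 of 19 rose and 2 fell, and these rods lay above P5 rods in the summed list, at 1636 to 1868 and 1303 to 2031 CPM. Summed over the 20 members in the table, it held 9605 to 10680 CPM in CiPC, 662 to 711 CPM in P5 rods and 4754 to 4806 CPM in MEF. In these bulk libraries, a share of cells of another type and a lower or higher level in each cell cannot be told apart, for this list and for those that follow.

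Retinal progenitor genes were higher too. Of 18 eye field and progenitor members tested, 12 rose, 2 fell and 4 were not called (median 2.19), while 7 rose and 5 fell of 19 against P4 and P6 rods. Of the 18, 3 passed the filter through CiPC alone, and of the other 15, 10 rose and 2 fell. Nr2e1, a nuclear receptor that keeps neural progenitors dividing, had 78, 75.7 and 82.7 CPM in CiPC, against 3.93, 3.43 and 2.68 CPM in P5 rods, while MEF stood at 0.0839 ± 0.0569 CPM. Lhx2 and Six3, homeobox factors of the eye field, changed by 3.5 ± 0.13 and 2.02 ± 0.058, and Pax6 by 2.29 ± 0.062. The differences of Six3 and Pax6 from P4 and P6 rods, 0.96 and 0.72, were not called. Hes1, the Notch effector that holds progenitors back from differentiation, had 73.9 ± 5.8 CPM in CiPC, against 1.17 ± 0.371 CPM in P5 rods. Rax and Six6, other eye field factors, were not called, at 29.7 CPM in CiPC and 36 CPM in P5 rods and at 45.8 CPM in CiPC and 25.8 CPM in P5 rods, but Rax was called lower against P4 and P6 rods (-2.21). Of the Notch pathway, 6 of 20 members rose and 4 fell, shares near the 24.8% and 18.5% of all genes, and against P4 and P6 rods 3 rose and 9 fell (median -0.82). The members included Lfng, a modifier of Notch receptors, at 127 ± 28.3 CPM in CiPC, against 2.82 ± 0.171 CPM in P5 rods, and the receptor Notch2 at 125 ± 11.1 CPM in CiPC, against 7.54 ± 0.179 CPM in P5 rods, whereas the ligands Dll1, Dll4 and Jag2 were among those that fell (Jag2 -3.31 ± 0.18). Of the 20 Notch members, 4 passed the filter through P5 rods alone and 1 through CiPC alone, and of the other 15, 5 rose and 3 fell.

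Proneural and pan-neuronal genes were lower or not called, with 1 member of each list higher, beside 18.5% of all genes lower and 24.8% higher. Of 11 proneural factors tested, Neurog2 rose (9.79 ± 0.206 CPM in CiPC, against 1.89 ± 0.281 CPM in P5 rods, with a difference of -0.37 from P4 and P6 rods) and 4 fell, among them Insm1 (-2.42 ± 0.061) and Myt1 (-3.35 ± 0.064). Against P4 and P6 rods, 11 of 14 fell. Of 20 pan-neuronal genes, 9 fell, led by the synaptic vesicle fusion protein Snap25 (58.5 ± 0.876 CPM in CiPC, against 622 ± 17.7 CPM in P5 rods) and by Syp (-3.31 ± 0.058), and Stmn2, a tubulin-binding protein of growing axons, rose (156 ± 10.9 CPM in CiPC, against 7.24 ± 0.601 CPM in P5 rods). Of amacrine, horizontal and ganglion cell genes, 5 of 17 rose and 4 fell, shares near those of all genes, and 5 of the 17 passed the filter through CiPC alone. Set against P4 and P6 rods, 2 of 20 rose and 11 fell (median -1.13). Prox1 was not called, at 164 CPM in CiPC and 213 CPM in P5 rods, and Calb1, calbindin, was at 14.2 CPM in CiPC and 0.602 CPM in P5 rods. Among neural RNA-binding factors, 7 of 16 fell (43.8%) and 3 rose (18.8%), the share that rose being below that of all genes. Srrm4 and Srrm3, which switch on microexons in neurons and photoreceptors, had 41.8 ± 3.3 CPM in CiPC, against 343 ± 7.14 CPM in P5 rods, and 8.5 ± 0.68 CPM in CiPC, against 65.2 ± 4.64 CPM in P5 rods. Msi1, a Musashi protein that photoreceptors need for their own splicing pattern, changed by -2.02 ± 0.072. Ptbp1, which represses neural exons, rose by 1.28 ± 0.086.

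Bipolar cell genes were lower in CiPC than in P5 rods, and this depended on which rods were used. Of 18 members, 17 fell and 1 was not called (median -1.72). Of the 18, 3 passed the filter through P5 rods alone, and 14 of the other 15 fell. Grm6, through which ON bipolar cells sense glutamate, had 34.4, 36.6 and 35.9 CPM in CiPC, against 214, 214 and 218 CPM in P5 rods, and Trpm1, the channel it controls, had 23.8 CPM in CiPC and 73.9 CPM in P5 rods. Against P4 and P6 rods, however, 2 of 17 members fell and 4 rose, with a median of -0.02, where 20.2% of all genes fell and 22.4% rose (42.6% in either direction). Grm6 stood at 1.46 CPM in P4 rods and 22.8 CPM in P6 rods, and the differences from these rods were 2.29 for Grm6 and 2.49 for Trpm1. Summed over the 18 members, the list held 399 to 463 CPM in CiPC, against 1326 to 1383 CPM in P5 rods, 313 to 329.5 CPM in P4 rods and 570.0 to 661 CPM in P6 rods. The P5 libraries thus held more bipolar transcript than those of either neighbouring age, and its part in the comparison was not tested.

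Genes of the fibroblast and its matrix were higher in CiPC than in P5 rods, although far below MEF. Of 28 fibroblast members tested, 25 rose, 0 fell and 3 were not called (median 3.07). Of the 28, 14 passed the filter through CiPC alone, and 12 of the other 14 rose and 0 fell. Sparc, a matrix glycoprotein, had 3026, 3064 and 3192 CPM in CiPC, against 32.3, 33.2 and 37 CPM in P5 rods, and MEF held 6108 ± 47.5 CPM. Fn1, fibronectin, and Col5a1, a collagen V chain, changed by 5.06 ± 0.078 and 5.01 ± 0.11. Twist1, a mesenchymal transcription factor that passed the filter through CiPC alone, had 20.1 ± 0.821 CPM in CiPC, against 0.0361 ± 0.0625 CPM in P5 rods, and MEF 31 ± 0.499 CPM. Thy1, Mmp2 and Postn were not called, and Thy1 stood at 2 CPM in CiPC and 4.92 CPM in P5 rods. The summed list held 7040 to 7408 CPM in CiPC, against 138 to 149 CPM in P5 rods and 42328 to 44804 CPM in MEF.

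Contractile genes were led by the gene with the highest change. Acta2 (chromosome 19, 34241090 to 34255590, minus strand), smooth muscle actin, had 2056, 2021 and 2012 CPM in CiPC, against 2.75, 3.83 and 3.91 CPM in P5 rods. Its change of 8.83 ± 0.099 was the highest among genes at 10 CPM or more (limma adjusted p = 9.18e-12), and MEF held 6741 ± 39.8 and day 8 cells 72.4 ± 2.77 CPM, so the CiPC level lay between those of its predecessors. Myl9, a myosin light chain, and Tagln, transgelin, changed by 7.37 ± 0.098 and 7.2 ± 0.075, and 9 of 11 contractile members rose with 0 lower (median 3.47). Of the 11, 5 passed the filter through CiPC alone, and 5 of the other 6 rose. Of the TGF-beta and YAP targets, 14 of 17 rose and 1, Skil, fell (median 2.67), and 5 of the 17 passed the filter through CiPC alone. Cyr61 (chromosome 3, 145646976 to 145649981, minus strand), a matrix-associated YAP target, had 965, 973 and 990.4 CPM in CiPC, against 6.27, 4.05 and 4.51 CPM in P5 rods. P4 and P6 rods, with 34.5 and 41.1 CPM, stood above P5 rods. Ctgf, its relative, and Thbs1, thrombospondin 1, changed by 6.77 ± 0.07 and 6.61 ± 0.068. The Id genes, inhibitors of helix-loop-helix factors, were all higher, from 2.67 ± 0.12 for Id1 to 3.45 ± 0.082 for Id2.

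Insulin-like growth factor binding proteins rose together with the matrix genes. Of 13 members of this axis tested, 10 rose and Pappa, a protease of the binding proteins, fell. Igfbp2 had 1059, 909.8 and 721 CPM in CiPC, against 7.25, 7.29 and 7.15 CPM in P5 rods, and Igfbp3 290.4, 283 and 295 CPM in CiPC, against 2.3, 2.54 and 2.67 CPM in P5 rods. Igf2 stood at 78.2 ± 7.06 CPM in CiPC, against 12 ± 1.05 CPM in P5 rods, and MEF held 4823 ± 259.7 CPM.

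Markers of other cell types were examined in the same way. Of macrophage and leukocyte genes, 13 of 13 tested members rose, but 10 of them passed the filter through CiPC alone, so the filter largely fixed their direction. With P4 and P6 rods in place of P5 rods, 9 of 16 rose and 1 fell. Lyz2, lysozyme, was at 162 ± 13.5 CPM in CiPC, against 2.15 ± 0.361 CPM in P5 rods, while the defining markers C1qa and Ptprc were at 3.09 CPM in CiPC and 0.112 CPM in P5 rods, and 2.18 CPM in CiPC and 0.562 CPM in P5 rods. The summed list held 232 to 258 CPM in CiPC, against 12.6 to 14.9 CPM in P5 rods and 592 to 608 CPM in MEF. Endothelial genes had 3 of 7 members higher and 0 lower, beside 24.8% and 18.5% of all genes. The members that rose were Kdr and Flt1, VEGF receptors, and Emcn. Of the 7, 2 passed the filter through CiPC alone and 3 through P5 rods alone, and the other 2 rose. Kdr was at 625 ± 28 CPM in CiPC, against 43 ± 1.22 CPM in P5 rods, with the defining marker Pecam1 at 0.759 CPM in CiPC and 2.18 CPM in P5 rods. Skeletal muscle genes had 1 higher (16.7%) and 2 lower (33.3%) of 6. Of these 6, 2 passed the filter through CiPC alone and 1 through P5 rods alone. Of the pigment epithelium list, 2 of 4 tested members rose, Trpm3 (232 ± 23.9 CPM in CiPC, against 8.78 ± 0.339 CPM in P5 rods) and Mitf. Of the 4, 1 passed the filter through CiPC alone and 1 through P5 rods alone, and of the other 2, 1 rose. Of 3 crystallins tested, all 3 rose, 2 of them having passed the filter through CiPC alone, and Cryab, a stress-inducible small heat shock protein found well beyond the lens, had 373 ± 25.3 CPM in CiPC, against 4.65 ± 0.175 CPM in P5 rods. Erythrocyte genes stayed under the expression filter, with summed levels of 0.161 to 0.254 CPM in CiPC and 0.862 to 1.28 CPM in P5 rods. The part that such cells could have in any result was not tested.

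Hox genes, which record the position of a cell along the body axis and are silent in the forebrain and eye, were in neither CiPC nor P5 rods at a level that could be tested. All 35 Hox genes in the table had means under 1 CPM in both groups. They summed to 0.473 to 1.04 CPM in CiPC and 2.76 to 3.21 CPM in P5 rods. MEF libraries held 248 to 257 CPM and day 8 libraries 214 to 227 CPM. Hoxb9, for example, was at 52.5 ± 1.63 CPM in MEF, 8.3 ± 0.336 CPM at day 8, 0.0602 ± 0.018 CPM in CiPC and 0.761 ± 0.179 CPM in P5 rods. Hoxa10 was at 13.2 ± 0.502 CPM in MEF and 37 ± 3.9 CPM at day 8, and was listed at 0 in all CiPC libraries. In this family CiPC and P5 rods stood together and apart from the fibroblasts, unlike in the fibroblast and contractile lists. The Y-linked genes Ddx3y, Uty, Kdm5d and Eif2s3y were expressed in both groups and none was called (Ddx3y at 40.3 CPM in CiPC and 44.5 CPM in P5 rods).

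**Figure D3:**
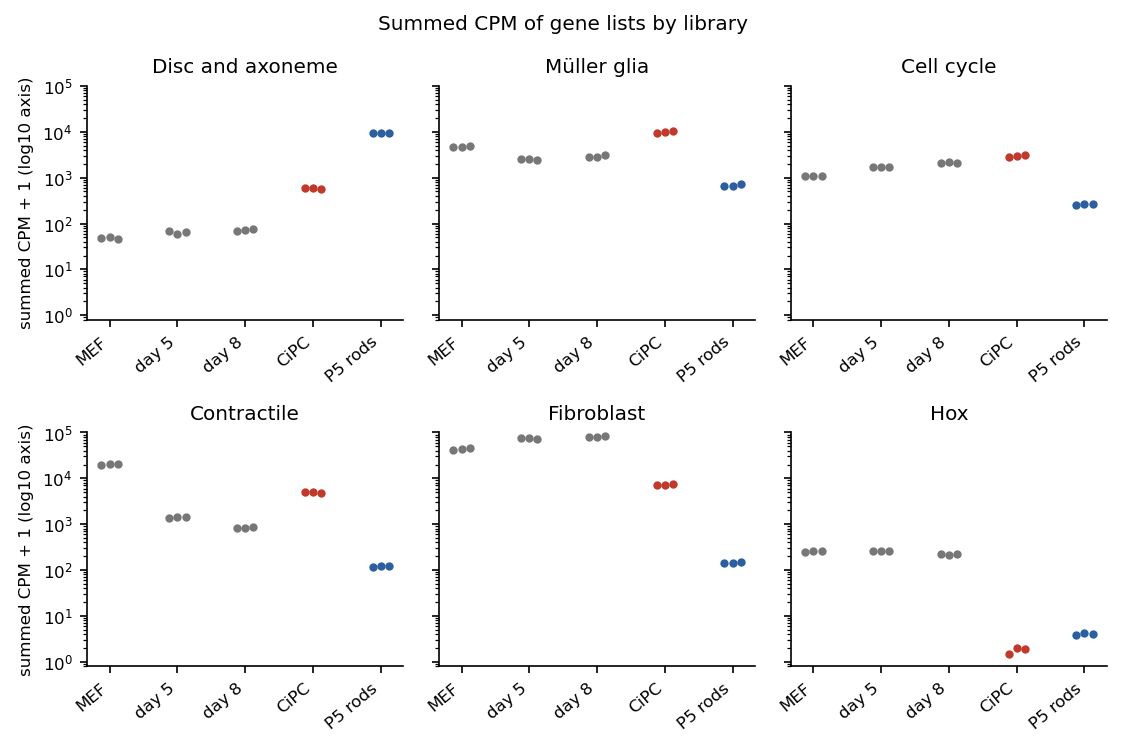
Summed normalized CPM of 6 gene lists in each library of MEF, day 5, day 8, CiPC and P5 rods, on a log10 axis of CPM + 1. The Hox sum lies at 248 to 257 CPM in MEF and 0.473 to 1.04 CPM in CiPC, the contractile sum at 4856 to 5054 CPM in CiPC and 117 to 121 CPM in P5 rods, and the disc and axoneme sum at 574 to 584 CPM in CiPC and 9238 to 9314 CPM in P5 rods.

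Cell cycle genes were higher in CiPC. Of 28 members, 27 rose and 1 was not called (median 3.87). Of the 28, 5 passed the filter through CiPC alone, and 22 of the other 23 rose and 0 fell. Mki67 (chromosome 7, 135689784 to 135716361, minus strand), a marker of dividing cells, had 380.3, 407 and 434 CPM in CiPC, against 4.25, 5.04 and 4.16 CPM in P5 rods. Rrm2, a subunit of ribonucleotide reductase, had 121, 128 and 149 CPM in CiPC, against 0.598, 0.996 and 0.694 CPM in P5 rods, and Cdk1, the mitotic kinase, 119 ± 9.01 CPM in CiPC, against 1.13 ± 0.416 CPM in P5 rods. The groups did not overlap in any of these, as in 86.4% of all tested genes, and Rrm2 and Cdk1 passed the filter through CiPC alone. Uhrf1, which guides maintenance DNA methylation at the replication fork, rose by 5.35 ± 0.12, and Ccnd1 and Ccnd2, cyclins D1 and D2, by 5.15 ± 0.063 and 6.01 ± 0.094. Summed over the list, CiPC held 2883 to 3114 CPM, against 258 to 266 CPM in P5 rods, 1259 to 1404 CPM in P4 rods, 564 to 678 CPM in P6 rods and 1083 to 1103 CPM in MEF, so CiPC stood above the rods of these ages and above their starting cells. P2 rods held 474 CPM of Mki67, and the difference of CiPC from them was -0.22. Among inhibitors of cyclin-dependent kinases, Cdkn1a, p21, fell (75.3 ± 0.386 CPM in CiPC, against 208 ± 4.63 CPM in P5 rods), but its difference from P4 and P6 rods was 3.92. Cdkn2b and Cdkn2c rose by 4.23 ± 0.1 and 3.25 ± 0.088, and Cdkn2b passed the filter through CiPC alone, which favours a rise. Cdkn1b, p27, was not called (102 CPM in CiPC and 65 CPM in P5 rods), with a difference of -0.6 from P4 and P6 rods that was not called either.

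For p53 targets the direction turned with the rods used. Against P5 rods, 7 of 15 members fell and 1 rose (median -0.61), with Bbc3, the death activator Puma, at 2.57 CPM in CiPC and 15.3 CPM in P5 rods and Btg2 at 76.3 ± 3.48 CPM in CiPC, against 311 ± 4.37 CPM in P5 rods. Against P4 and P6 rods, 7 of 14 rose and 3 fell (median 1.12). The summed list stood at 821 to 836 CPM in CiPC, against 1521 to 1559 CPM in P5 rods and 861 to 882 CPM in P4 rods. Among regulators of apoptosis, 6 of 17 rose and 5 fell, beside 24.8% and 18.5% of all genes. Bak1, a pore former, rose by 2.68 ± 0.14, and the death activators Hrk, Bmf and Bcl2l11 fell by 2.41, 2.27 and 1.45 log2 units. The difference of Bcl2l11 from P4 and P6 rods, -0.49, was not called.

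Inflammatory genes were higher in CiPC than in P5 rods. Of 22 NF-kB targets tested, 18 rose, 0 fell and 4 were not called (median 2.15). Of the 22, 12 passed the filter through CiPC alone, and 8 of the other 10 rose and 0 fell. The chemokine Ccl2 had 95.3, 97.8 and 107 CPM in CiPC, against 0.78, 0.96 and 0.651 CPM in P5 rods, and Ccl20 31.9, 33.8 and 36.1 CPM in CiPC, against 0.0706, 0 and 0.0357 CPM in P5 rods, with P5 rods near 0. Both chemokines passed the filter through CiPC alone, which favours a rise, so they are given as levels only. Ptgs2, cyclooxygenase 2, rose by 4.92 ± 0.12, and Nfkb2, an NF-kB precursor subunit, by 3.94 ± 0.12. The summed NF-kB list held 764 to 777 CPM in CiPC and 198 to 205 CPM in P5 rods. It was higher in MEF (1276 to 1345 CPM) and day 8 cells (1284 to 1316 CPM) than in CiPC. Of the acute phase list, 7 of 9 rose, and 4 of the 9 passed the filter through CiPC alone. Lcn2 (chromosome 2, 32384633 to 32388252, minus strand), a siderophore-binding lipocalin, had 399, 370.3 and 359 CPM in CiPC, against 2.32, 2.72 and 3.06 CPM in P5 rods, and MEF 0.069 ± 0.0644 CPM. The summed acute phase list held 3599.5 to 4269 CPM in CiPC, 78.3 to 82.1 CPM in P5 rods and 55.1 to 57.6 CPM in MEF. Day 8 cells, at 37976 to 41851 CPM, lay far above CiPC. Steap4, a metalloreductase, rose by 5.49 ± 0.11. Antigen presentation genes had 9 of 11 members higher (median 2.47), with B2m, the light chain of class I molecules, at 343 ± 16.5 CPM in CiPC, against 7.71 ± 0.54 CPM in P5 rods. Of these 11, 3 passed the filter through CiPC alone and 1 through P5 rods alone, and 6 of the other 7 rose. For interferon-stimulated genes, 7 of 16 rose and Stat2 fell (-1.67 ± 0.073, with -0.04 from P4 and P6 rods), and against P4 and P6 rods 15 of 16 rose. The summed interferon list was 375 to 396 CPM in CiPC, 323 to 338 CPM in P5 rods and 66.5 to 68.4 CPM in P4 rods.

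Stress and immediate early genes varied. NRF2 and antioxidant genes had 9 of 17 members higher and 0 lower, led by Hmox1, heme oxygenase 1 (331 ± 11.5 CPM in CiPC, against 9.13 ± 0.0845 CPM in P5 rods), and Gstm1, a glutathione transferase (94.2 ± 0.403 CPM in CiPC, against 2.52 ± 0.259 CPM in P5 rods). In the integrated stress and unfolded protein list, 5 of 20 rose and 6 fell, beside 24.8% of all genes higher and 18.5% lower. The share that rose was thus near that of all genes. Whether the called members, given next, divide by function was not tested. Hspa5, Sdf2l1, Pdia4 and Edem1, which serve folding and degradation in the endoplasmic reticulum, rose (Hspa5 1.61 ± 0.061), as did Phgdh, of serine synthesis (3.66 ± 0.12), and Atf4, Ddit3, Chac1, Trib3, Sesn2 and Ddit4, of the integrated stress response, fell (Ddit3 -2.15 ± 0.097). Relative to P4 and P6 rods, 8 of 20 rose and 1 fell (median 0.86 there and -0.04 against P5 rods). From these rods the difference was 1.49 for Sesn2 and 0.77 for Chac1, and those of Atf4 (-0.79), Ddit3 (-0.94) and Trib3 (-0.32) were not called. Of cAMP-responsive and immediate early genes, 12 of 21 rose and 0 fell. Fos had 415, 397 and 373 CPM in CiPC, against 21.7, 25.8 and 23.4 CPM in P5 rods, and Egr1 644, 602 and 559 CPM in CiPC, against 82.8, 84.7 and 86.1 CPM in P5 rods. P4 and P6 rods held 469.9 and 303 CPM of Fos, and the difference from them was 0.18.

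Metabolic genes went both ways, beside 24.8% of all genes higher and 18.5% lower against P5 rods. In glycolysis, 11 of 22 members rose and 3 fell (median 0.8), and against P4 and P6 rods 4 rose and 3 fell (median 0.46). Eno1, the widespread enolase, had 3845, 3441 and 3169.7 CPM in CiPC, against 795, 839 and 896 CPM in P5 rods, and Eno2, the neuronal enolase, had 46, 34.3 and 30.8 CPM in CiPC, against 229.6, 254 and 265 CPM in P5 rods. Eno1 has a near-identical copy, so its value is uncertain. The hexokinase Hk2 and the lactate dehydrogenase subunit Ldhb rose by 1.78 ± 0.15 and 1.89 ± 0.058, and Hk1 and Ldha of the same families fell (-2.14 ± 0.064 and -1.11 ± 0.058), with a difference of 0.38 for Hk1 from P4 and P6 rods. From those rods the differences of Hk2 (0.65), Ldhb (0.41) and Eno2 (-0.96) were not called. Nuclear-encoded respiratory chain genes had 0 higher and 1 lower of 22, Ndufv1 being the member that fell (-1.44 ± 0.081, with -0.12 from P4 and P6 rods). Mitochondrially encoded members rose in 12 of 13 cases (median 1.25), and in 1 of 13 against P4 and P6 rods (median 0.08). Cholesterol and fatty acid genes had 5 higher (18.5%) and 2 lower (7.41%) of 27 against P5 rods, both below the shares of all genes. Scd1, a desaturase, was at 83.4 ± 1.34 CPM in CiPC, against 4.04 ± 0.362 CPM in P5 rods. Against P4 and P6 rods, 21 of the 27 were higher, where 22.4% of all genes rose.

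Chromatin regulators went both ways, beside 24.8% of all genes higher and 18.5% lower. Jarid2, a Polycomb cofactor, had 41, 41.8 and 35.5 CPM in CiPC, against 371, 369 and 367 CPM in P5 rods, and the groups did not overlap. The 5-methylcytosine dioxygenases Tet1, Tet2 and Tet3 fell together, and Tet3 had 107, 100.5 and 87.1 CPM in CiPC, against 539, 576 and 557 CPM in P5 rods (change -2.49 ± 0.078). Of DNA methylation genes, 5 of 15 fell and 3 rose, and of deacetylases 4 of 14 fell and Hdac7 rose (108 ± 11.7 CPM in CiPC, against 21.9 ± 1.32 CPM in P5 rods). Lmna, lamin A/C, which mature mouse rods lack, had 86.6, 70.6 and 43.4 CPM in CiPC, against 2.68, 3.55 and 3.68 CPM in P5 rods, while Syne2 and Sun1, of the complex that links nucleus and cytoskeleton, fell (-1.57 ± 0.08 and -1.36 ± 0.052), the difference of Sun1 from P4 and P6 rods being -0.57 and not called. Hmga2, an architectural protein of stem and fibroblast cells, rose by 5.22 ± 0.09. Of Polycomb and architectural genes, 6 of 19 fell and 3 rose.

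Hormone and secretory genes went both ways against P5 rods. Npvf (chromosome 6, 50650672 to 50654439, minus strand), the precursor of RFamide neuropeptides, had 671, 686 and 713 CPM in CiPC, against 0.743, 0.785 and 0.885 CPM in P5 rods. MEF held 0.0699 CPM and day 8 cells 0.0308 CPM, while P4 and P6 rods were listed at 0. Npvf passed the filter through CiPC alone, which favours a rise, so it is given as levels only. Crym (chromosome 7, 120186380 to 120202111, minus strand), a thyroid hormone-binding protein, had 3198, 3069 and 3072 CPM in CiPC, against 74.8, 78.8 and 86.4 CPM in P5 rods. Dio2, which activates thyroid hormone, rose by 3.93 ± 0.1, but it passed the filter through CiPC alone, which favours a rise. The receptors Thrb and Thra and the corepressor Hr fell (-2.64 ± 0.13, -1.09 ± 0.073 and -2.0 ± 0.12). The difference from P4 and P6 rods was 2.78 for Hr, and that of Thra, -0.54, was not called. Among granule genes, Scg2, secretogranin 2, rose (389 ± 39.1 CPM in CiPC, against 108 ± 4.46 CPM in P5 rods) and Chga and Chgb, chromogranins, fell (-2.5 ± 0.1 and -2.41 ± 0.051), while the difference of Chga from P4 and P6 rods was -0.04. In the retinoic acid list, 7 of 14 rose and 4 fell, beside 24.8% of all genes higher and 18.5% lower. Of the 14, 3 passed the filter through CiPC alone and 2 through P5 rods alone, and of the other 9, 4 rose and 2 fell. Aldh1a1, a retinoic acid-making enzyme of the dorsal retina, had 589, 637 and 699.5 CPM in CiPC, against 12.2, 12.1 and 13.7 CPM in P5 rods. Cyp26a1, which degrades retinoic acid, passed the filter through CiPC alone, so its rise of 3.87 ± 0.11 supports nothing by itself. Of Wnt pathway genes, 9 of 18 rose (50.0%) and 2 fell (11.1%), beside 24.8% and 18.5% of all genes. Axin2, a target and inhibitor of the pathway, was at 5.54, 6.22 and 3.27 CPM in CiPC, against 20.5, 17.2 and 18.3 CPM in P5 rods. Imprinted genes had 8 of 13 members higher and Peg3 lower, and Mest rose the most (2969 ± 149 CPM in CiPC, against 74.2 ± 1.26 CPM in P5 rods).

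**Figure D4:**
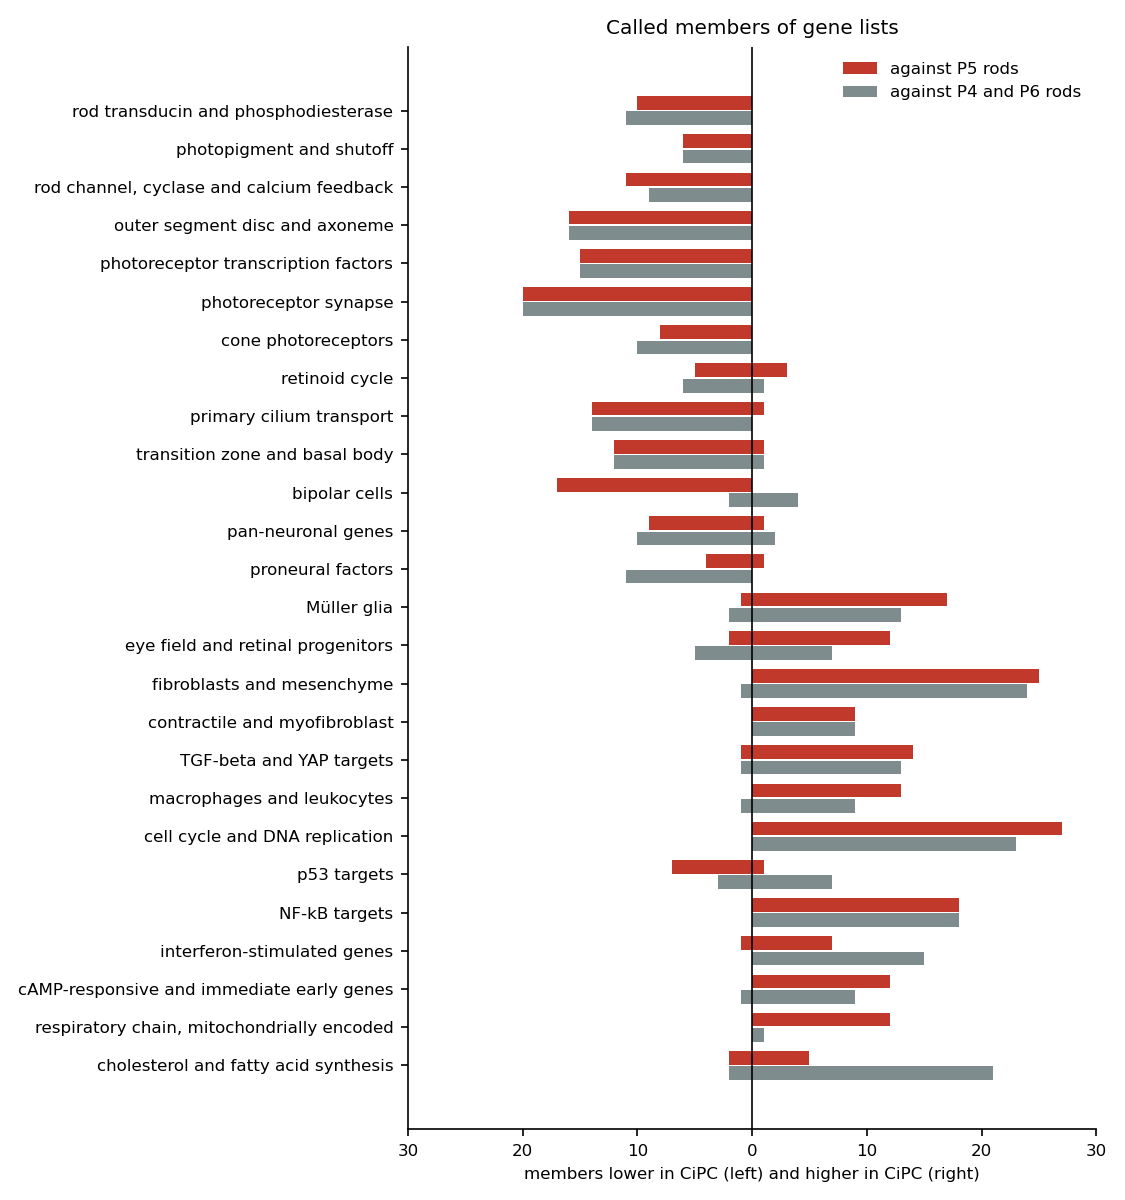
Number of members called higher (right of 0) and lower (left of 0) in CiPC for 26 gene lists, against P5 rods (upper bar of each pair) and against P4 and P6 rods (lower bar). The rod lists lie to the left in both, and bipolar cell genes had 17 members lower against P5 rods and 2 against P4 and P6 rods.

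The genes with the largest falls were chosen by size alone among genes at 10 CPM or more with no overlap between the groups. Pitpnm3, a phosphatidylinositol transfer protein family member, had 9.02, 4.82 and 6.63 CPM in CiPC, against 427, 452 and 457 CPM in P5 rods, the largest fall of this choice (-5.87 ± 0.16). Besides genes given above they included Tub (-4.63 ± 0.068), a relative of Tulp1, Doc2b, a calcium sensor of vesicle release (-4.84 ± 0.1), Atp8a2, a lipid flippase of photoreceptor discs (-4.34 ± 0.077), Fam57b (-4.37 ± 0.076), Slco4a1, an organic anion transporter (-4.5 ± 0.071), and BC027072, a photoreceptor cilium protein (-4.45 ± 0.081). Sspo, SCO-spondin, had 1.43, 1.45 and 0.742 CPM in CiPC, against 52.7, 58.7 and 59.5 CPM in P5 rods. P4 and P6 rods held 0.5 and 0.501 CPM.

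Among the genes with the largest rises, by the same choice, Tnc, the matrix protein tenascin C, had 916, 894 and 910.2 CPM in CiPC, against 4.54, 3.26 and 5.71 CPM in P5 rods. Spp1, osteopontin, and F5, coagulation factor V, rose by 7.33 ± 0.15 and 7.15 ± 0.1, and Crispld2, a secreted protein, by 7.06 ± 0.098. Lama2, a laminin chain, Fbn2, a fibrillin, and Col8a1, a collagen, rose by 7.05 ± 0.11, 6.71 ± 0.076 and 6.6 ± 0.072. Akap12, a scaffold for protein kinase A, had 2514, 2552 and 2518 CPM in CiPC, against 18.9, 19.2 and 19.5 CPM in P5 rods, above MEF at 836 ± 11.6 CPM. Cnn2, a calponin, and Anxa3, an annexin, rose by 7.0 ± 0.11 and 6.65 ± 0.11. MEF means were at or above those of CiPC for Acta2, Tnc, Myl9, Spp1, Tagln, Cnn2, Ctgf, Thbs1, Col8a1 and Sparc, and below those of CiPC for Npvf, Cyr61, F5, Crispld2, Lama2, Akap12, Igfbp2, Fbn2, Lcn2 and Anxa3.

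Where CiPC lay between fibroblast and rod was described over the 3754 genes whose MEF and P5 means differed by at least 2 log2 units, a choice made without CiPC. On a log2(CPM + 1) scale with MEF at 0 and P5 rods at 1, the median gene lay at 0.433 in CiPC, with quartiles of 0.215 and 0.684. A position on this log scale is not a share of the rod CPM. The disc and axoneme list, with a median position of 0.5, summed to 574 to 584 CPM in CiPC, against 9238 to 9314 CPM in P5 rods. Of the 1449 genes higher in P5 rods than in MEF, the median was 0.457. Of these, 35.6% lay in the upper part of the way (from 0.5 to 1), 8.14% at or beyond the rod level and 3.24% below the MEF level. Of the 2305 genes lower in P5 rods, the median was 0.412, and 15.9% lay on the far side of MEF. By list, the median position was 0.5 for disc and axoneme genes, 0.54 for photoreceptor transcription factors, 0.53 for fibroblast genes and 0.46 for contractile genes, while it was 1.01 for the 24 Hox genes so chosen and -0.51 for 18 cell cycle genes, which lay beyond MEF on the side away from rods. Because MEF and P5 rods set both ends of the scale and chose the genes, these positions are a description with no test.

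**Figure D5:**
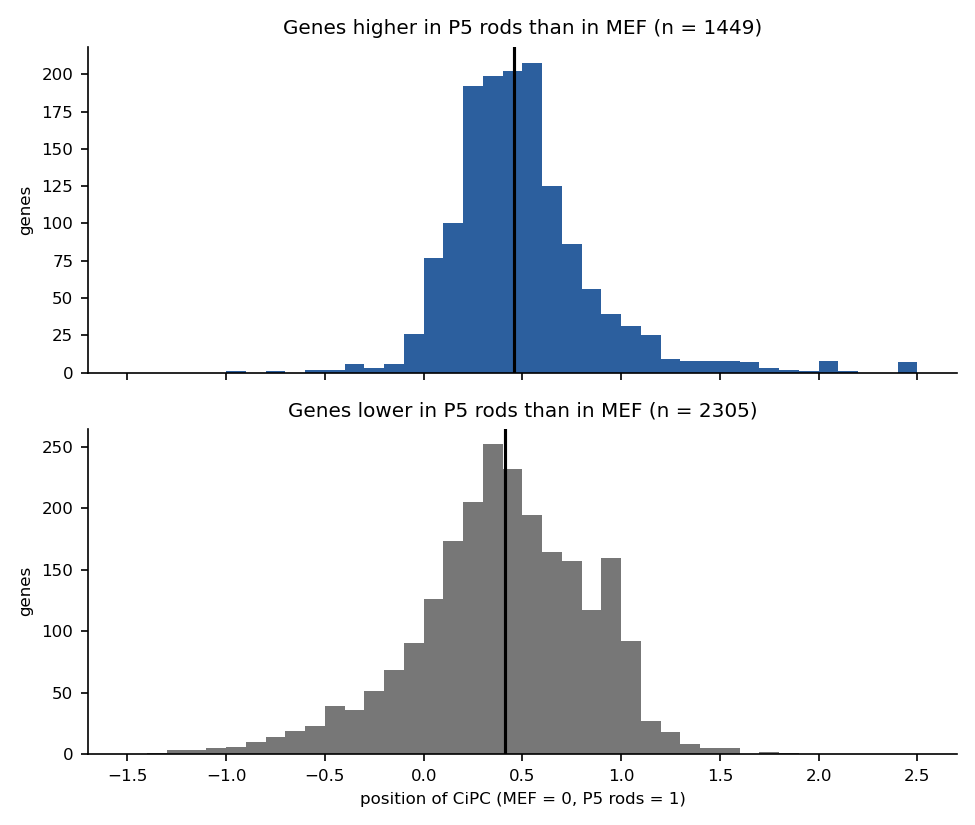
Histogram of the position of CiPC on a log2(CPM + 1) scale with MEF at 0 and P5 rods at 1, over 1449 genes higher (upper panel) and 2305 genes lower (lower panel) in P5 rods than in MEF by at least 2 log2 units, with the median drawn as a line. Both distributions are broad, with medians of 0.457 and 0.412, and values beyond the axis are gathered in its end bins.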

How the data were processed

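RNA-seq values were taken from the authors' deposited table of normalized CPM, a signal value per gene and library that the labels' processing notes tie to kallisto, with no version given. The sources used here do not give the index, genome build, strandedness or normalization method, and the table's column sums differ between groups, so the values are not plain CPM. Whole reads could not be recovered, so no count test was run and the depth, which sets the precision of low values, is unknown. Of 33 value columns, 0 were left unused. Of 15289 genes, those at 1 CPM or more in at least 3 of the 6 libraries (13546) were tested with limma 3.58.1 (R 4.3.3) on log2(CPM + 1), with an empirical Bayes variance trend, no replicate block, Benjamini-Hochberg adjustment over all tested genes, and calls at adjusted p under 0.05 with a 2-fold or larger difference. In a test on simulated data for this comparison (13165 genes), 98.8% of 80 genes changed 3-fold and 100% of 57 genes changed 5-fold were recovered and 0 unchanged genes were called. The changed genes were few and drawn only from those with higher means, and noise was independent between genes. In the data 43.3% of tested genes were called, so the simulation does not cover genes near 1 CPM or so broad a change. Named genes were anchor genes, the 20 largest rises and 20 largest falls at 10 CPM or more without overlap between groups, and members of gene lists. The comparison, its 64 gene lists and some named members were chosen with earlier results of these data known. Gene positions are of GRCm38 (GENCODE M21), and 202 genes that share a symbol were reduced to 1 identifier per symbol. P3 rods were not analysed here, and some list members are counted but not reported by name. The alternatives covered the pseudocount, filter, scaling, variance model, fold, replicate block, groups in the fit, other rods, GC content and length, and leaving out each library.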

Additional observations from a re-analysis of the deposited data

How the results depend on the processing

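The counts of 3365 genes higher and 2500 lower in CiPC stayed within 1.5 times under the alternatives of pseudocount, filter, scaling, variance model, groups in the fit, other rods and GC content and length, and moved with the fold threshold. Adjusted p alone gave 5727 higher and 5882 lower, a fold of at least 4 gave 1669 and 669, and a fold of at least 1.5 gave 4198 lower. Leaving out 1 library gave 3343 to 3389 higher and 2470 to 2522 lower. With replicate number as a block, the counts were 3366 and 2500 and none of the 214 named genes changed its call. Same-numbered CiPC and P5 libraries deviated from their group means with correlations of -0.311, 0.015 and -0.329. CiPC 1 with P5 3 gave 0.326, and CiPC 3 with P5 1 gave 0.323. With 3 libraries per group such values cannot decide whether the samples were paired. The median position of 0.433 became 0.439 and 0.409 with pseudocounts of 0.1 and 5, 0.416 under quantile normalization, 0.436 with equal nuclear sums and 0.451 against P4 and P6 rods, and it was 0.429 to 0.432 without 1 library. Its SD over CiPC replicates was 0.00346.

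No named gene called in either fit changed direction under the pseudocounts, scalings, variance model or left-out libraries. Changes of direction came with other rods, whose age and series both differ, and the cause was not tested. Against P4 and P6 rods, 10 named genes that were called against these or against P5 rods changed direction, with differences of 0.17 for Bbc3, 3.92 for Cdkn1a, 0.77 for Chac1, 2.29 for Grm6, 0.38 for Hk1, 2.78 for Hr, -0.37 for Neurog2, -0.12 for Rdh10, 1.49 for Sesn2 and 2.49 for Trpm1. A further 23 lost their call, with -0.79 for Atf4, -1.0 for Axin2, -0.49 for Bcl2l11, 0.81 for C1qa, -0.04 for Chga, -0.94 for Ddit3, 0.87 for Edem1, -0.96 for Eno2, 0.18 for Fos, -0.67 for Gnb3, 0.65 for Hk2, 0.64 for Kif3a, 0.41 for Ldhb, -0.12 for Ndufv1, 0.72 for Pax6, 0.93 for Pdia4, 1.00 for Ptprc, 0.79 for Rlbp1, 0.96 for Six3, -0.04 for Stat2, -0.57 for Sun1, -0.54 for Thra and -0.32 for Trib3. The 10 called there and not against P5 rods had -2.34 for Dmd, -1.01 for Eif2s3y, -1.92 for Gnat2, -1.64 for Ift74, -5.15 for Opn1sw, -3.52 for Pde6a, -1.22 for Pecam1, 1.38 for Postn, -2.21 for Rax and -1.62 for Uty. Cdkn1b, called in none of these comparisons, was at 0.64 against P5 rods, -0.60 against P4 and P6 rods and -0.63 against P2 rods. By the same rule 21 genes changed direction against P2 rods, with -0.36 for Ccnd1, 2.72 for Cdkn1a, 0.99 for Chac1, -0.11 for Cyp26a1, -0.26 for Fos, 5.07 for Grm6, -0.08 for Hes1, 1.52 for Hk1, -0.10 for Hk2, 4.80 for Hr, -0.21 for Lhx2, -0.22 for Mki67, -1.45 for Neurog2, -0.52 for Pax6, 1.01 for Prox1, 0.18 for Rcvrn, 1.65 for Sesn2, -1.14 for Six6, 0.61 for Sspo, 0.38 for Trib3 and 3.13 for Trpm1.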
